A study of Mus musculus with 23 samples.

Results

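The messengers of 10 genes whose proteins build and steer lipoproteins were followed in mouse liver: 9 apolipoprotein genes (Apoa1, Apoa2, Apoa4, Apoa5, Apob, Apoc1, Apoc2, Apoc3 and Apoe) and Mttp, the gene of the microsomal triglyceride transfer protein. They were taken by symbol from a table of 24440 genes, with no threshold on a measured value, by a choice made with earlier results of these data known. All 10 were among the 12891 genes that passed the filter on low counts. Messenger RNA was sequenced from perfused livers of male C57Bl/6 mice obtained at 6 to 8 weeks of age, 1 mouse per library. The mice were wild type (WT), labelled IL-4 KO (IL4KO), or labelled IL-10/4 dKO, lacking both IL-10 and IL-4 (dKO). They had eaten normal chow or a high fat diet (HFD) with 60% of its energy from fat for 15 weeks. Each of the 6 groups had 4 libraries, except IL4KO on HFD with 3, giving 23 libraries in all. The dKO mice therefore differ from IL4KO mice by the labelled loss of IL-10, and from WT mice by both losses. The labels name no alleles, and replicate numbers below only name libraries.

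Lipoproteins are particles that carry triglyceride and cholesterol through the blood. In hepatocytes the large protein encoded by Apob is loaded with lipid by the Mttp protein to form very low density lipoprotein (VLDL). Apoa1 and Apoa2 encode the main proteins of high density lipoprotein (HDL). Smaller exchangeable apolipoproteins set the fate of triglyceride-rich particles: the Apoc2 protein activates lipoprotein lipase, the Apoc3 and Apoc1 proteins restrain its action and remnant clearance, the Apoa5 protein favours lipolysis, and the Apoe protein is a ligand for remnant receptors. The Apoa4 protein travels on chylomicrons, VLDL and HDL. In mice the liver makes it as well as the intestine.

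Total counts of a library ran from 7.11 to 30.2 in units of 1000000 counts, with 16.2 to 30.2 in dKO on chow against 10.9 to 12.5 in WT on chow. The 10 genes held 3.23% to 5.91% of the counts of a library. Il4 was at 0 to 3 counts in all libraries, so its deletion could not be checked. Il10 was at 41 to 67 counts in the libraries labelled dKO on chow and 6 to 21 in those labelled dKO on HFD, against 0 to 4 elsewhere. Those counts go against the label unless they come from a part of the gene that was kept, and dKO below means the libraries so labelled. Hepatocyte markers were present in every library. Replicate 4 of dKO on HFD and replicate 2 of IL4KO on HFD stood apart from the others of their groups, and counts of called genes that change when either is left out are given with and without it.

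The genes lie at 5 places in the mouse genome (GRCm38, the mm10 build). Apoa1, Apoc3, Apoa4 and Apoa5 share 43.3 kb of chromosome 9 (46228580 to 46271919). Apoc2, Apoc1 and Apoe share 27.6 kb of chromosome 7 (19671579 to 19699188). Apoa2 is on chromosome 1 (171225054 to 171226379), Mttp on chromosome 3 (138089854 to 138144968) and Apob on chromosome 12 (7977648 to 8016835). Annotated antisense genes overlap Apoa4 (2), Apoa5 (1) and Mttp (2), and the strand setting of the counting is not given in the sources used here, so reads of those partners may be included. Apoc2 also overlaps Gm44805, an annotated gene of the same strand. A separate row for the Apoc4-apoc2 readthrough held counts equal to 0.0193% to 1.96% of those of Apoc2.

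The bases just before the start of 4 genes are printed because these genes behaved differently: Apoc2 responded to diet in every genotype, Apoa2 was lower in dKO while its partner Apoa1 was not called in any comparison, and Apob moved little. The sequences are from RefSeq promoter windows (GRCm38.p6), cut where GENCODE annotates an exon, and are written 5′ to 3′ with matches to the searched motifs in capitals.
Apoc2, chr7:19677942-19678082, minus strand: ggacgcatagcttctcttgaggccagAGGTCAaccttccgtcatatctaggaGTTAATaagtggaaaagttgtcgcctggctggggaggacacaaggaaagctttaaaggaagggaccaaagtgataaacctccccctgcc
Apoa2, chr1:171224804-171225053, plus strand: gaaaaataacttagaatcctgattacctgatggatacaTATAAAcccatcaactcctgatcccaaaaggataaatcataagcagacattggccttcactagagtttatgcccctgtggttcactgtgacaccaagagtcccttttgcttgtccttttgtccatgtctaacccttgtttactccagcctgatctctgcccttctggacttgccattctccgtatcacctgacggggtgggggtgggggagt
Apoa1, chr9:46228380-46228579, plus strand: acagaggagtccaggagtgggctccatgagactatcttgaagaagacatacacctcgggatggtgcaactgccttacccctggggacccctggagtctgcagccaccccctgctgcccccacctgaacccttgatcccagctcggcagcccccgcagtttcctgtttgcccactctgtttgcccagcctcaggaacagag
Apob, chr12:7977427-7977647, plus strand: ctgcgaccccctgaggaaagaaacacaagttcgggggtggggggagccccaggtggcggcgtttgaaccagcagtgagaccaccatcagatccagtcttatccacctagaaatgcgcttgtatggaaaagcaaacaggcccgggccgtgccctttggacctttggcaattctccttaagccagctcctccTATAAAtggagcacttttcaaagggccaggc

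RefSeq windows of 250 bases before a start were at hand for 8 of the 10 genes, 12 windows in all. The 6 motifs named here were searched on both strands. AGGTCA, a half-site of nuclear receptors, was in 2 of the 12 windows and in 14.02% of 32851 windows genome-wide. In Apoc2 it lies 115 bases before the RefSeq start, followed by GTTAAT, a half-site of HNF1, 89 bases before it. GTTAAT was in 2 of 12 windows and in 6.432% genome-wide. TATAAA, the TATA box, was in 5 of 12 windows, of 4 genes, against 12.37% genome-wide. The 2 Apoa5 windows among them overlap by 225 bases and hold the same match. It lies at 212 bases before the start in Apoa2 and at 60 in Apob. The printed Apoa1 stretch held none of the 6 motifs. CAAAGTCCA (0.3835% genome-wide), TTGCGCAA (0.1644%) and TGACGTCA (1.546%) were in 0 of 12 windows. None of the matches shown overlaps another motif. These are matches of letters only.

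Levels of different genes were compared as counts per 1000000 (CPM) per kilobase of exon, averaged over the 23 libraries. By that measure Apoe was highest at 9636, followed by Apoa1 at 8988, Apoa2 at 8647 and Apoc1 at 5159. Apoc3 was at 1252, Apoa4 at 675 and Apoa5 at 575. Apoc2 at 360, Apob at 352 and Mttp at 96.8 were the lowest of the 10. All other levels below are CPM, scaled by the trimmed mean of M values, and compare 1 gene between groups.

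**Figure D1:**
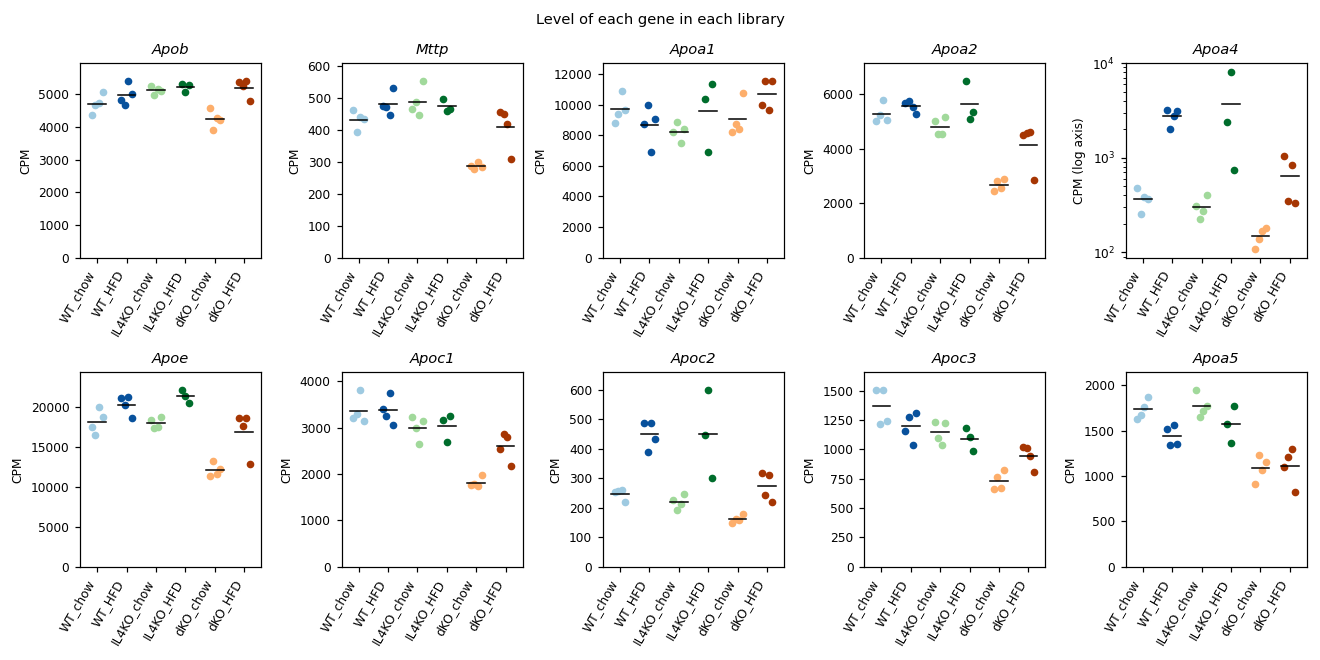
Level of each gene in CPM (vertical axis, logarithmic for Apoa4 and from 0 for the others) in each of the 23 libraries, by group. Points are libraries and bars are group means; in 9 of the 10 panels the lowest mean is dKO on chow, and Apoa4 spans 109 to 8079 CPM.

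Apoa4 and Apoc2 were higher on HFD in each genotype. In dKO on chow, 8 of the 10 genes were lower than in WT on chow, with Apoa1 and Apob not called. The test was the quasi-likelihood F test of edgeR, adjusted over all 12891 genes (FDR), and a gene was called where the FDR was below 0.05. Beside the first count in each comparison, the percentage of all tested genes called there is given as background, and the counts of lists are set against the same percentages.

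The diet effect in WT asked what the high fat diet changed in a normal liver. Of the 10 genes, 2 rose and 0 fell, against 19.5% of all genes called (9.63% higher). The median log2 fold change of the 10 genes was 0.08, and that of all genes 0.00. In WT on chow Apoa4 was at 252, 368, 384 and 474 CPM, and on HFD at 2031, 2757, 3135 and 3222 CPM. Every HFD library was above every chow library, a separation seen for 12.4% of all genes, and the lowest HFD library was 5.50 times the chow mean. Apoa4 rose by 2.91 on the log2 scale (SE 0.535, FDR 0.00128). Apoc2, the lipase activator, was at 218, 253, 256 and 259 CPM on chow and at 387, 433, 485 and 487 CPM on HFD. Its groups did not overlap either, and it rose by 0.86 (SE 0.153, FDR 0.000608). The other C apolipoproteins were not called, with a log2 difference of 0.00 for Apoc1 (FDR 0.990) and −0.19 for Apoc3 (FDR 0.242). Apoa5 was at 1736 ± 105 CPM (SD, n = 4) on chow and 1444 ± 113 CPM (SD, n = 4) on HFD, a log2 difference of −0.27 (FDR 0.142).

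The same 2 genes rose in IL4KO, against 9.08% of all genes called there (5.14% higher). Apoa4 was at 222, 275, 305 and 406 CPM on chow and at 740, 2388 and 8079 CPM on HFD. All 3 HFD libraries were above the chow libraries, as for 9.08% of all genes, yet they differed among themselves far more than any other group. The log2 fold change was 3.63 (SE 0.569, FDR 0.00118). Fitted on the compared groups alone it was 3.67 with an FDR of 0.0652. The 8079 CPM belong to replicate 2, whose summed hepatocyte markers (10 genes) were 84970 CPM against 113345 and 125049 CPM in the other libraries, and whose stellate cell markers (9 genes) summed to 873 CPM against 334 and 423 CPM. Its summed markers were also highest for Kupffer cells and macrophages (682 against 326 and 391 CPM) and lipid-associated macrophages (403 against 120 and 98.6 CPM). The same held for cholangiocytes (170 against 48.7 and 42.9 CPM), neutrophils (135 against 38.6 and 60.2 CPM) and endothelial cells. Adipocyte and pancreas markers were lowest there, and enterocyte and erythroid markers lay between those of the others. The part of these cell types in the Apoa4 value was not tested. Apoc2 was at 193, 211, 227 and 246 CPM on chow and at 300, 446 and 599 CPM on HFD, again highest in replicate 2. It rose by 1.03 (SE 0.163, FDR 0.000710). Without replicate 2 the diet effect in IL4KO was 2.38 for Apoa4 (FDR 0.0117) and 0.78 for Apoc2 (FDR 0.010), and both stayed called.

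In dKO the high fat diet went with higher levels of 8 genes: 8 rose and 0 fell, against 40.0% of all genes called (19.4% higher). The median log2 fold change was 0.50 for the 10 genes and −0.02 for all genes. Apoa4 was at 109, 139, 166 and 181 CPM on chow and at 331, 344, 841 and 1036 CPM on HFD, and rose by 2.10 (SE 0.519, FDR 0.00381). Apoc2 was at 147, 160, 163 and 179 CPM on chow and at 220, 242, 310 and 317 CPM on HFD, and rose by 0.75 (SE 0.152, FDR 0.000621). Neither gene overlapped between diets, as 14.3% of all genes did not in that direction. The 6 further genes that rose were Apoa2 (0.63), Apoc1 (0.52), Mttp (0.51), Apoe (0.48), Apoc3 (0.37) and Apob (0.29). Apoa1 (0.24, FDR 0.195) and Apoa5 (0.03, FDR 0.892) were not called. The count was 8 whichever single library was left out, including replicate 4 of dKO on HFD, the lowest of its group for 9 of the 10 genes. It was 7 fitted on the compared groups alone (4540 of 12934 genes called) and 6 on the deposited log2 values (4648 of 14078 genes called). Apob was not called in either (FDR 0.0774 and 0.185), nor Apoe on the deposited values (FDR 0.283).

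Across the genome 171 genes rose with diet in all 3 genotypes and 76 fell. Apoa4 and Apoc2 were the only 2 of the 10 genes in the first set, and none was in the second. The diet effects of Apoa4 and Apoc2 were not called as different between genotypes. For Apoa4 the difference between the dKO and WT diet effects was −0.81 on the log2 scale (SE 0.706, FDR 0.417), and between dKO and IL4KO −1.53 (SE 0.733, FDR 0.136). Without replicate 3 of IL4KO on HFD the latter was −2.01 and was called (FDR 0.0172). Without replicate 2 of that group, its highest in Apoa4, the IL4KO diet effect was 2.38, beside 2.10 in dKO with all libraries. The 95% intervals of the 2 differences with all libraries were wide, from −2.30 to 0.68 and from −3.07 to 0.02. For Apoc2 the differences were −0.11 (−0.57 to 0.34) and −0.28 (−0.76 to 0.19).

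Markers of other cells moved with diet in dKO, where 40.0% of all genes were called. All 11 neutrophil markers and all 11 macrophage markers fell, 7 of 7 tested cholangiocyte markers fell, and 7 of 10 hepatocyte markers rose. Hepatocyte markers summed to 72733 to 84812 CPM on chow and to 114898 to 129237 CPM on HFD. In bulk RNA fewer hepatocytes and less RNA per hepatocyte cannot be told apart, and the part of either in these levels was not tested. In WT the macrophage and neutrophil markers had 0 calls with diet at 11 markers each, while 4 of 9 stellate cell markers rose, against 19.5% of all genes called. Intestine is the other main source of Apoa4, Apob and Mttp. Among 7 enterocyte markers, Sis was at 0 counts in every library, Lct reached 1, Cdh17 2, Alpi 7 and Vil1 35 counts. Fabp2 and Apobec1, the 2 markers that passed the filter, were called in some diet effects. Fabp2 rose by 1.26 in WT (FDR 0.000961), 1.13 in IL4KO (FDR 0.00704) and 2.21 in dKO (FDR 2.90e-06). Apobec1 rose in IL4KO (0.57, FDR 0.0255), fell in dKO (−0.51, FDR 0.00269) and was not called in WT. The 7 markers summed to 87.3 to 125 CPM in WT on chow and 190 to 250 CPM on HFD, to 81.4 to 110 and 172 to 220 CPM in IL4KO, and to 45.7 to 54.9 and 73.0 to 160 CPM in dKO. The part of intestinal cells in the levels of Apoa4, Apob and Mttp was not tested.

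**Figure D2:**
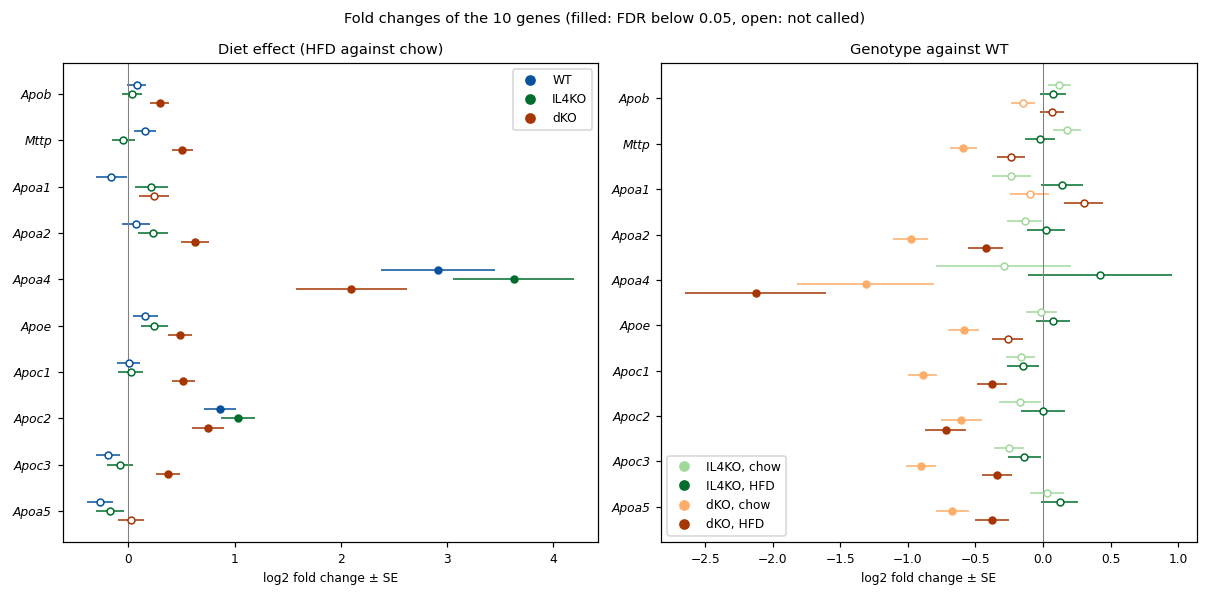
Log2 fold change with its standard error for each gene (rows), for the diet effect in each genotype (left) and for each knockout against WT on each diet (right). Filled points have an FDR below 0.05; Apoa4 and Apoc2 are filled in all 3 diet effects, and the dKO on chow points of 8 genes are filled to the left of 0.

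The loss of IL-4 alone was compared with WT on each diet. None of the 10 genes was called, on chow against 9.61% of all genes called and on HFD against 3.02%, with edgeR, DESeq2 or limma-voom. At an unadjusted p under 0.05 there was 1 gene on chow and 0 on HFD. The chow gene was Apoc3, at 1151 ± 95.8 CPM (SD, n = 4) in IL4KO and 1368 ± 162 CPM (SD, n = 4) in WT (log2 difference −0.25, FDR 0.166). Intervals bound what could have been missed. The 95% interval was narrowest for Apob, from −0.06 to 0.31 on chow. It was widest for Apoa4, from −1.35 to 0.76 on chow and from −0.71 to 1.55 on HFD, so that a large change of Apoa4 could have been missed. The difference between the IL4KO and WT diet effects was called for 0 of the 10 genes by all 3 tools, against 0.0465% of all genes, with 0 at an unadjusted p under 0.05.

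The double knockout on chow stood lowest. Against WT on chow 8 of the 10 genes fell and 0 rose, with 46.3% of all genes called (21.9% lower). Against IL4KO on chow 8 fell and 0 rose, with 45.2% called (22.2% lower). The 2 sets of 8 differ: against IL4KO Apob was called and Apoa4 was not (−1.02, FDR 0.108). Both comparisons share the dKO libraries. The median log2 fold change of the 10 genes against WT was −0.64, and that of all genes 0.02. Libraries of dKO on chow were deeper than those of WT, and with all libraries thinned to the smallest total 7 of the 8 calls against WT were made. Over all genes 4924 of 12229 were called after thinning, against 5966 of 12891 before it.

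HDL genes split. In WT on chow Apoa2 was at 5026, 5047, 5251 and 5806 CPM, and in dKO on chow at 2431, 2568, 2823 and 2898 CPM. Every dKO library was below every WT library, which held for 8 of the 10 genes and for 20.1% of all genes. Apoa2 fell by 0.98 on the log2 scale (SE 0.130, FDR 6.82e-06). Apoa1 was at 8810, 9405, 9619 and 10908 CPM in WT on chow and at 8221, 8438, 8768 and 10790 CPM in dKO on chow. These groups overlapped, with a log2 difference of −0.10 (FDR 0.607) and a 95% interval from −0.40 to 0.21. The count ratio of Apoa1 to Apoa2, which does not depend on library scaling, was 1.83 ± 0.0722 (SD, n = 4) in WT on chow and 3.37 ± 0.260 (SD, n = 4) in dKO on chow, with no overlap (1.75 to 1.91 against 3.11 to 3.72). It was 1.72 ± 0.157 (SD, n = 4) in IL4KO on chow. In dKO on HFD 3 libraries were at 2.08 to 2.52 and replicate 4 at 4.06.

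The regulators of lipolysis fell together. Apoc3, the lipase inhibitor, was at 1215, 1242, 1508 and 1508 CPM in WT on chow and at 663, 673, 764 and 826 CPM in dKO on chow, and fell by 0.90 (SE 0.112, FDR 3.17e-06). Apoc1 fell by 0.89 (SE 0.109, FDR 2.87e-06), from 3365 ± 308 to 1816 ± 107 CPM (SD, n = 4 each). Apoa5, the activator of lipolysis, fell by 0.67 (FDR 0.000199), from 1736 ± 105 to 1091 ± 141 CPM (SD, n = 4 each). Apoc2 fell by 0.61 (FDR 0.00271) and in no library of dKO on chow reached the lowest WT value of 218 CPM.

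Apoe, whose protein brings remnants to their receptors, was at 16530, 17604, 18746 and 20048 CPM in WT on chow and at 11382, 11610, 12334 and 13236 CPM in dKO on chow. It fell by 0.59 (SE 0.116, FDR 0.000343). Macrophages also express Apoe. The summed CPM of 11 Kupffer cell and macrophage markers was 957 to 1212 in dKO on chow and 354 to 651 in WT on chow. The part of macrophages in the Apoe level was not tested. On the deposited log2 values the Apoe difference was −0.52 with an FDR of 0.143.

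The pair that starts VLDL assembly also split. Mttp was at 394, 433, 441 and 463 CPM in WT on chow and at 279, 285, 286 and 300 CPM in dKO on chow. Every dKO library lay below every WT library. Mttp fell by 0.59 (SE 0.102, FDR 9.00e-05). Apob, its lipid acceptor, was at 4364, 4680, 4740 and 5061 CPM in WT on chow and at 3901, 4215, 4288 and 4581 CPM in dKO on chow, with a log2 difference of −0.15 (SE 0.0881, FDR 0.170). DESeq2 called it at −0.17 (FDR 0.0153). Against IL4KO on chow Apob fell by 0.27 (SE 0.0882, FDR 0.0154), a call lost in 3 of 19 alternatives, among them the omission of dKO on chow replicate 2 (FDR 0.0580). The count ratio of Apob to Mttp was 10.9 ± 1.12 (SD, n = 4) in WT on chow and 14.8 ± 0.894 (SD, n = 4) in dKO on chow, without overlap.

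Apoa4 was also lower in dKO on chow than in WT on chow, by 1.31 on the log2 scale (SE 0.507, FDR 0.0417), and the groups did not overlap. This call is the weakest of the 8. It was lost when dKO replicate 1 was left out (−1.19, FDR 0.100), as in 6 of the other 7 omissions of a compared library, and after thinning to the smallest library (−1.31, FDR 0.0506).

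Cell type markers moved with the chow difference between dKO and WT, in which 46.3% of all genes were called. Of 10 hepatocyte markers 9 fell and 0 rose, with a summed level of 72733 to 84812 CPM in dKO on chow and 108604 to 113786 CPM in WT on chow. All 11 neutrophil markers rose, with a median summed level of 1396 CPM against 31.2 CPM. Cholangiocyte markers, of which 7 of 7 tested rose, summed to 464 to 839 CPM against 44.7 to 52.4 CPM. Macrophage markers rose at 10 of 11. None of these lists had a marker at 0 in every library of either group. Their part in the lower apolipoprotein levels was not tested.

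On HFD 6 of the 10 genes were lower in dKO than in WT and 0 were higher, against 24.5% of all genes called (11.6% lower). Apoa4 showed the widest gap, at 331 to 1036 CPM in dKO against 2031 to 3222 CPM in WT, and fell by 2.13 (SE 0.519, FDR 0.00672). Apoc2 fell by 0.72 (SE 0.152, FDR 0.00186), from 448 ± 47.8 to 272 ± 48.4 CPM (SD, n = 4 each). Apoa2 (−0.42), Apoa5 (−0.38), Apoc1 (−0.38) and Apoc3 (−0.34) also fell, with FDRs from 0.0148 to 0.0299. Apoe (−0.26, FDR 0.101), Mttp (−0.24, FDR 0.0911), Apob (0.07, FDR 0.617) and Apoa1 (0.30, FDR 0.130) were not called. Fitted on the compared groups alone, 2 of the 6 calls were left, with 2282 of 12121 genes called. Without replicate 4 of dKO on HFD, 4 of the 6 calls were left, with 2795 of 12811 genes called. The 4 were Apoa4 (−1.91, FDR 0.0241), Apoc2 (−0.63, FDR 0.00833), Apoc1 (−0.30, FDR 0.0411) and Apoa2 (−0.28, FDR 0.0443). Apoa5 (−0.26, FDR 0.0869) and Apoc3 (−0.27, FDR 0.0799) were then not called. The Apoa5 call was also lost without dKO replicate 1 or WT replicate 1 or 3, that of Apoc3 without dKO replicate 3 or WT replicate 2 or 4, and that of Apoc1 without WT replicate 3.

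Against IL4KO on HFD 3 genes fell, Apoa4 (−2.55, FDR 0.0223), Apoc2 (−0.72, FDR 0.0226) and Apoa5 (−0.50, FDR 0.0457), with 2.51% of all genes called (1.56% lower). This count depends on single libraries, as does that of all genes. It was 0 without replicate 2 of IL4KO on HFD, without replicate 2 or without replicate 4 of dKO on HFD, and 1 without replicate 1 of IL4KO on HFD. Over all genes 39 of 13075, 106 of 12825, 118 of 12811 and 93 of 13113 were then called, in the same order. With all libraries 323 of 12891 were called. Without that IL4KO replicate 2 the Apoa4 difference was −1.30 (FDR 0.265). The Apoa5 call was lost in 10 of 18 alternatives.

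The difference between diet effects was tested directly. The dKO diet effect was larger than that of WT for 3 genes, Apoa2 (0.55, SE 0.183, FDR 0.0312), Apoc1 (0.51, SE 0.153, FDR 0.0201) and Apoc3 (0.56, SE 0.158, FDR 0.0145), with 25.2% of all genes called (12.6% higher). Apoc3 thus differed by −0.19 with diet in WT and rose by 0.37 in dKO. Against the IL4KO diet effect it was larger for Apoc1 (0.49, FDR 0.0281), Apoc3 (0.45, FDR 0.0487) and Mttp (0.55, FDR 0.0110), with 24.4% of all genes called (12.7% higher). Several of these calls were close to the threshold. That of Apoc3 against IL4KO was lost in 17 of 26 alternatives, that of Apoc1 against IL4KO in 9 of 26 and that of Apoa2 against WT in 8 of 27. Those of Apoc3 against WT and of Mttp against IL4KO were lost in 0 of 27 and 0 of 26. Replicate 4 of dKO on HFD bears on these counts. Without it the dKO minus WT count was 6 in place of 3 and the dKO minus IL4KO count 5 in place of 3. Calls over all genes rose too. Without that library 4457 of 12811 genes were called for dKO minus WT, against 3254 of 12891 with it. For dKO minus IL4KO 4190 of 12811 genes were called, against 3144 of 12891. That library had Apoa2 at 2845 CPM and Apoe at 12938 CPM, inside the range of dKO on chow, where the other 3 averaged 4572 ± 48.6 and 18324 ± 540 CPM (SD, n = 3). Its neutrophil markers summed to 480 CPM against 18.8 to 74.0 CPM in the other 3 libraries of the group. Sums were also highest there for Kupffer cells and macrophages (753 against 325 to 429 CPM), lipid-associated macrophages (458 against 152 to 215 CPM) and cholangiocytes (301 against 107 to 157 CPM). Endothelial and erythroid markers were highest there too. Hepatocyte, enterocyte and adipocyte markers were lowest, and stellate cell and pancreas markers lay within the range of the others. The dKO minus IL4KO count was 1 without replicate 2 of IL4KO on HFD, replicate 2 or 3 of dKO on HFD, replicate 2 or 3 of dKO on chow, or replicate 1 of IL4KO on chow. Over all genes 1293 to 2835 were called in these settings.

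Ranked by group mean, dKO on chow was the lowest group for every gene but Apoa1, whose lowest was IL4KO on chow. Most neighbours in the order did not differ beyond their spread. The step from dKO on HFD down to dKO on chow was called for Apoa2, Apoc1, Apoc3, Apoe and Mttp. For Apoa4 and Apoc2 the called step lay higher, between WT on HFD and dKO on HFD, and Apoc2 had a second one between IL4KO on chow and dKO on chow (0.44, FDR 0.0236, lost in 5 of 19 alternatives). Apoa5 had its called step between WT on HFD and dKO on HFD. Apoa1 and Apob had no called step between neighbours. The highest group mean was 25.1 times the lowest for Apoa4, 2.77 times for Apoc2 and 2.11 times for Apoa2, but 1.30 times for Apoa1 and 1.23 times for Apob. Without replicate 2 of IL4KO on HFD the IL4KO HFD mean of Apoa4 was 1564 CPM in place of 3736, and its highest group mean, then WT on HFD, was 18.7 times the lowest.

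**Figure D3:**
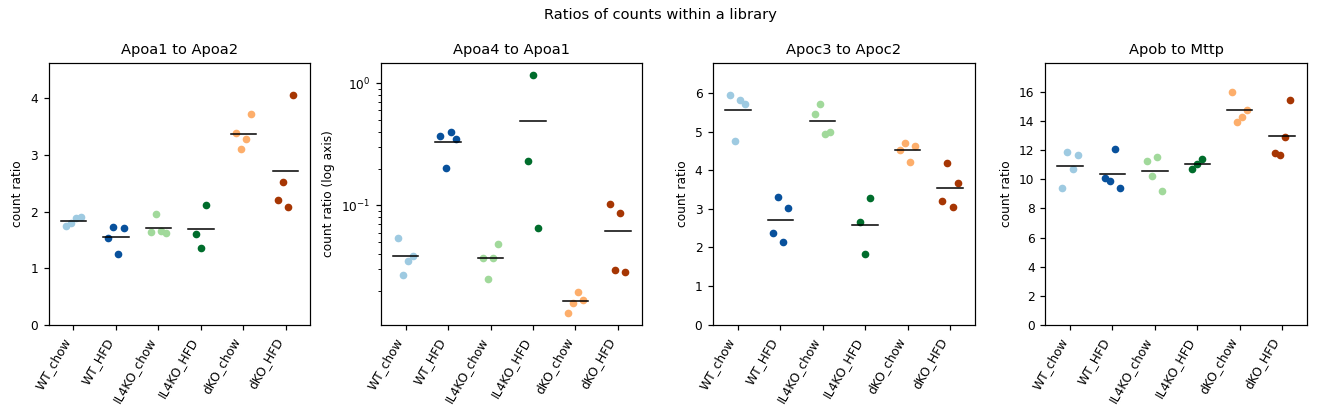
Count ratio of 2 genes within each library (vertical axes, logarithmic for Apoa4 to Apoa1 and from 0 for the others) by group; points are libraries and bars are group means. Apoa1 to Apoa2 lies at 1.75 to 1.91 in WT on chow and at 3.11 to 3.72 in dKO on chow, and Apoc3 to Apoc2 drops on HFD in each genotype.

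The ratio of lipase inhibitor to activator was lower on HFD. The count ratio of Apoc3 to Apoc2 was 5.56 ± 0.548 (SD, n = 4) in WT on chow and 2.72 ± 0.541 (SD, n = 4) on HFD. In IL4KO it was 5.27 ± 0.376 (SD, n = 4) on chow and 2.59 ± 0.718 (SD, n = 3) on HFD. In dKO it was 4.51 ± 0.215 (SD, n = 4) and 3.53 ± 0.519 (SD, n = 4). The diets did not overlap in any genotype, the closest being 4.20 on HFD and 4.21 on chow in dKO. The ratio of Apoa4 to Apoa1, neighbours on chromosome 9, was 0.0385 ± 0.0113 (SD, n = 4) in WT on chow and 0.330 ± 0.0865 (SD, n = 4) on HFD. In the IL4KO HFD library with the highest Apoa4 it reached 1.17, so that Apoa4 counts exceeded those of Apoa1.

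Genes of 1 cluster were called together in some comparisons and apart in others. On chromosome 7 Apoc2, Apoc1 and Apoe all fell in dKO against WT on chow (−0.61, −0.89 and −0.59) and all rose with diet in dKO (0.75, 0.52 and 0.48). On chromosome 9 Apoa4, Apoa5 and Apoc3 fell in dKO against WT on chow, while Apoa1 was not called. With diet in WT the clusters were called apart. Apoa4 rose while its neighbours Apoa1, Apoc3 and Apoa5 had log2 differences of −0.16, −0.19 and −0.27. Apoc2 rose while Apoc1 and Apoe had differences of 0.00 and 0.16. Apoa4 and Apoc2, on different chromosomes, were the most alike pair among the 10. Over the 23 libraries their log2 CPM had a Pearson r of 0.98 and a Spearman rho of 0.96, and r was 0.98 without the 2 libraries farthest from the Apoa4 median (IL4KO on HFD replicate 2 and WT on HFD replicate 1). After group means were subtracted r was 0.92. Apoa2 and Apoe followed with r of 0.96 (0.87 after subtraction). Apoa1 had r of −0.20 to 0.02 with the other 9, and −0.61 with Apoa4 after subtraction. These are descriptions, since libraries of a group share diet and genotype.

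**Figure D4:**
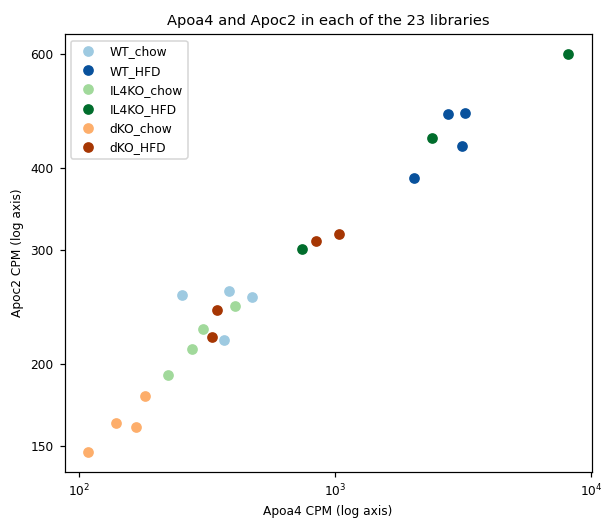
Apoa4 against Apoc2 in CPM, both axes logarithmic, with 1 point per library coloured by group. The 23 points run along 1 line (r of 0.98) from dKO on chow at the lower left to IL4KO on HFD replicate 2 at 8079 and 599 CPM.

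Likeness was measured against 10572 genes outside the list that averaged 2 CPM or more. Of these, Cd36, which encodes a fatty acid uptake receptor, had the profile most like Apoa4 (r = 0.96) and also most like Apoc2 (r = 0.96). Cd36 was at 78.4 ± 18.7 CPM in WT on chow and 317 ± 67.0 CPM in WT on HFD, at 77.2 ± 12.9 and 303 ± 174 CPM in IL4KO, and at 28.3 ± 4.38 and 126 ± 73.5 CPM in dKO (SD, n = 4, but 3 for IL4KO on HFD). Next for Apoa4 were Lgals1 and Hsd17b13, and for Apoc2 Apmap and Ppa2. Apoa2 was most like Got2, Coasy and Atp5f1 (r of 0.97 to 0.98), and Apoe most like Slc25a10 and Dhrs4 (0.97 to 0.98). The most similar genes were Rarres2, Cyb5a and Echs1 for Apoc1, Hyi, Ndufb8 and Uqcrh for Apoc3, and Pcca, Olig1 and Slc47a1 for Mttp. For Apoa5 they were Aes, Gchfr and Cyp3a25, and for Apob Klf9, Mia2 and Arfgef1. Apoa1 had the weakest best match, Ahsg at r = 0.76.

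Other genes of the pathway were counted in lists. Of all tested genes 46.3% were called in dKO against WT on chow (21.9% lower), 40.0% with diet in dKO (19.4% higher), 19.5% with diet in WT and 9.08% with diet in IL4KO. Of 19 genes of particle assembly and secretion 0 rose and 13 fell in dKO against WT on chow, with a median log2 fold change of −0.29 beside 0.02 for all genes. Ces1g (−1.74, FDR 3.93e-06) and Ces1d (−1.70, FDR 7.62e-05) encode carboxylesterases, Aadac (−0.92, FDR 4.72e-06) a microsomal esterase, and Sar1b (−0.75, FDR 1.87e-05) a GTPase that buds large secretory vesicles. With diet in dKO 10 of these rose and 1 fell. Mia2 (1.05, FDR 4.08e-06), a cargo factor at endoplasmic reticulum exit sites, and the coat genes Sec23a (0.74) and Sec24d (0.83) were among those that rose. With diet in WT 2 rose and 1 fell, and in IL4KO 1 rose and 0 fell, shares below the background.

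Of 13 tested genes of lipases and their regulators 1 rose and 9 fell in dKO against WT on chow (median log2 fold change −0.38). Hepatic lipase, Lipc (−0.97, FDR 1.58e-06), endothelial lipase, Lipg (−2.24, FDR 9.19e-05), and the convertase gene Pcsk6 (−0.82, FDR 3.81e-05) were among those that fell. With diet in dKO 7 rose and 1 fell, while in WT Lipc fell by 0.76 (FDR 0.000124) and Pcsk6 rose by 0.43 (FDR 0.0237). Of 19 receptors and uptake genes 7 rose and 2 fell in dKO against WT on chow, a share called near the 46.3% of all genes. Those 2 were Vldlr (−3.58, FDR 5.32e-06), the VLDL receptor, and Cd36 (−1.47, FDR 0.00643). The lipolysis-stimulated receptor gene Lsr rose by 0.90 (FDR 6.35e-05). With diet in WT 5 rose and 2 fell, among them Cd36 at 2.01 (FDR 0.00243).

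Of 13 other apolipoproteins and particle proteins 2 rose and 6 fell in dKO against WT on chow, where 46.3% of all genes were called. Pon1, an HDL-borne esterase, fell by 0.98 (FDR 5.32e-06) and Apoc4, the chromosome 7 neighbour of Apoc2, by 0.67 (FDR 5.23e-05). The apolipoprotein gene Saa4 rose by 1.72 (FDR 4.25e-05) and Clu by 0.66 (FDR 0.000297). Among 5 genes of Apob messenger editing, the deaminase gene Apobec1 rose by 0.76 (FDR 8.53e-05), and its cofactors Rbm47 (−0.82, FDR 0.000137) and A1cf (−0.57, FDR 0.0156) fell. Of 10 cholesterol efflux genes 4 rose and 4 fell, with the canalicular transporters Abcg8 (−1.13, FDR 7.07e-06) and Abcg5 (−1.10, FDR 7.18e-06) lower.

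Of 32 transcriptional regulators with known or proposed roles at these genes 5 rose and 8 fell in dKO against WT on chow, a smaller share than the 46.3% of all genes called. Ppargc1a, a coactivator, fell by 1.57 (FDR 0.000121), Nr0b2 by 1.20 (FDR 0.000216) and Foxo3 by 1.08 (FDR 0.000345), while Nr2f2 rose by 0.56 (FDR 0.000142). With diet in WT 7 rose and 5 fell, among them Pparg at 1.41 (FDR 0.000444) and Ppara at 0.61 (FDR 0.00913), against 19.5% of all genes called. With diet in dKO 9 rose and 3 fell, near the 40.0% of all genes, and Ppara rose by 1.31 (FDR 5.13e-06).

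Abundant secreted hepatocyte proteins outside lipid transport were counted beside them. Of 20 such genes 10 rose and 4 fell in dKO against WT on chow (46.3% of all genes called), with a median log2 fold change of 0.54 beside −0.64 for the 10 lipoprotein genes. Hp, haptoglobin, rose by 1.83 (FDR 3.02e-05) and Ambp by 0.80 (FDR 0.000183). The plasma carriers Ttr (−0.78, FDR 1.75e-05) and Rbp4 (−0.90, FDR 2.72e-05) fell. With diet in dKO the direction was opposite, with 3 higher and 12 lower (40.0% of all genes called). Several of these genes, Hp among them, are acute phase genes.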

How the data were processed

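Liver RNA was sequenced with a stranded kit, per the labels' protocols. The files deposited by the authors give estimated counts for 24440 gene symbols and log2 values for 14078 genes, used here as an alternative. The submitters' processing notes name bcl2fastq 2.16, TopHat2 2.0.8, Partek and mm10. Neither annotation nor strand setting is given in the sources used here.

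Estimated counts were rounded and analysed in R 4.3.3 with edgeR 4.0.16. Its filter by group left 12891 genes. Scaling was by TMM, and a single robust quasi-likelihood model covered the 23 libraries (17 residual degrees of freedom). All tests were two-sided, with the Benjamini-Hochberg method applied across every tested gene and a threshold of 0.05. SE is the log2 fold change divided by the square root of the F statistic. DESeq2 1.42.0, limma 3.58.1, other factors, filters, thinning and omission of each library were alternatives. The code was tested on simulated data. The 10 genes and the lists were chosen with earlier results of these data known. From each list up to 4 called genes with the smallest FDR could be named, and the 3 most correlated genes were taken for likeness. The results of some of these genes are not reported here. Precision is set by 3 or 4 mice per group. Protein sequences were not used here.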

Additional observations from a re-analysis of the deposited data

Results flagged for a closer look

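Within groups of 4 libraries, 3 of 50 sets of values had 1 library set apart from the rest by Dixon's criterion. For independent sets chance gives about 1 in 20. The 50 sets are the 10 genes in the same libraries and are not independent, so that rate cannot tell whether these flags are chance. Apoa2 at 2845 CPM and Apoe at 12938 CPM were the lowest values of dKO on HFD, both in replicate 4. Apoc2 at 218 CPM was the lowest value of WT on chow, in replicate 4.

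The diet effect differed between genotypes for these genes by a direct test of the difference (edgeR). In each comparison 3 of the 10 genes were called, all higher, a share called near that of all genes. Of all genes 25.2% were called between dKO and WT (12.6% higher) and 24.4% between dKO and IL4KO (12.7% higher). Between dKO and WT the log2 difference was 0.55 for Apoa2, 0.51 for Apoc1 and 0.56 for Apoc3. Between dKO and IL4KO it was 0.49 for Apoc1, 0.45 for Apoc3 and 0.55 for Mttp. Each difference rests on 1 dKO HFD group that holds replicate 4. Without that library the Apoa2 difference between dKO and IL4KO was 0.54 (FDR 0.00526) and was called too, as was the Mttp difference between dKO and WT at 0.48 (FDR 0.00266). The Apoc3 difference between dKO and IL4KO was not called in 17 of 26 alternatives (0.40, FDR 0.0883 without replicate 1 of dKO on chow), the Apoc1 difference between dKO and IL4KO in 9 of 26, and the Apoa2 difference between dKO and WT in 8 of 27.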

How the results depend on the processing

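No called difference changed its direction, but some differences that were not called changed sign. In dKO against IL4KO on HFD, Apoa1 was at 0.16 with all libraries and −0.03 without replicate 2 of IL4KO on HFD. In the same comparison Apob was at −0.008 with all libraries and 0.03 without replicate 4 of dKO on HFD. Over single genes, comparisons and settings, 2361 values kept their side of the threshold, 92 lost it and 17 gained it. Where a count moved the cause was not tested. Fitted on the compared groups alone, the number of the 10 genes called was 1 for the diet effect in IL4KO, 0 for dKO against IL4KO on HFD, 2 for dKO against WT on HFD and 1 for the dKO minus IL4KO difference of diet effects. Over all genes those fits called 528 of 11456, 4 of 12085, 2282 of 12121 and 2506 of 12797, in the same order. On the deposited log2 values the number of the 10 genes was 5 for dKO against IL4KO on chow, 1 for dKO minus IL4KO and 1 for dKO minus WT. Of 14078 genes there, 5623, 2933 and 2747 were called. DESeq2 gave 5 for dKO against IL4KO on HFD and 5 for dKO minus WT, with 589 of 12635 and 3607 of 12885 genes called. Upper quartile factors gave 1 for dKO minus IL4KO, with 3044 of 12891 genes called. With 1 library left out the counts ran from 0 to 3 for dKO against IL4KO on HFD, from 1 to 5 for dKO minus IL4KO, from 2 to 6 for dKO minus WT, from 4 to 6 for dKO against WT on HFD, and from 7 to 8 for dKO against WT and against IL4KO on chow. Those of the 3 diet effects (2, 2 and 8) and of IL4KO against WT (0 on each diet) did not move. Calls over all genes moved as well. They ran from 39 to 1241 for dKO against IL4KO on HFD, from 1293 to 4190 for dKO minus IL4KO and from 2130 to 4457 for dKO minus WT. No paired analysis was possible because the labels give no replicate numbers. On the authors' log2 values the dKO calls of Apoe were lost (diet effect in dKO 0.40, FDR 0.283), and the reason was not tested.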

Other observations

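The makeup of the 10 genes' counts was also described. Apoe took 37.5% ± 1.88 (SD, n = 4) of them in dKO on chow and 41.9% ± 0.739 (SD, n = 4) in IL4KO on chow, the lowest and highest group means. The share of Apoa1 was 21.3% ± 0.777 (SD, n = 4) in WT on chow and 27.9% ± 2.06 (SD, n = 4) in dKO on chow. The share of Apoa4 went from 0.814% ± 0.209 (SD, n = 4) in WT on chow to 5.66% ± 1.11 (SD, n = 4) in WT on HFD. In dKO it was 0.458% ± 0.0850 (SD, n = 4) on chow and 1.46% ± 0.748 (SD, n = 4) on HFD.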
